A study of Mus musculus with 12 samples.

Results

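The genes described here are the cyclins and the cyclin-dependent kinases (CDKs) of the mouse. They were chosen by name, as every protein-coding gene of the count table whose symbol is that of a cyclin (*Ccn* with its letter and number, and *Ccnb1ip1*) or of a numbered kinase (*Cdk*). This gave 44 of the 21208 protein-coding genes, 26 with a cyclin symbol and 18 kinases, in a table of 55401 genes. The rule itself uses no measured value.

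Oocytes of 4 groups were sequenced, with 3 libraries in each group, from primordial or from primary follicles of ovaries cultured for 5 days with the solvent DMSO (control) or with dorsomorphin (DM), an inhibitor of AMP-activated protein kinase. The ovaries came from C57Bl/6j x CBA/J females of 7 to 8 days of age, and DM and the follicle stage were the only stated differences between groups. Each library was made from 200 oocytes that were pooled after laser capture from fixed, paraffin-embedded and stained sections, so it is a pool and not a cell, and its RNA was amplified. The sample labels call the control a sham treatment in vivo, the study's methods describe ovaries in culture, and the sources used here do not give the dose of DM for these libraries separately. In such pools, fewer cells that carry a transcript and less of it in each cell cannot be told apart.

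A CDK is a protein kinase that is inactive until a cyclin binds it, and the cyclin also chooses the substrates. Cyclins D and E with Cdk4, Cdk6 and Cdk2 act before and at DNA replication, and cyclins A and B with Cdk1 drive entry into M phase. Oocytes of primordial and primary follicles are held in prophase of the first meiotic division, and resumption depends on cyclin B with Cdk1. Another branch of the family does not drive division. Cyclins C, H, K and T work with Cdk7, Cdk8, Cdk9, Cdk12, Cdk13 and Cdk19 on RNA polymerase II and the Mediator complex, and cyclins L are linked to splicing.

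The promoters of 4 members are shown because the results below turn on them. *Ccnk* and *Cdk7* had no overlap between DM and control in primordial follicles, and *Cdk1* and *Ccnb1* form the M-phase pair. Each sequence is the 250 bases before the transcript start in RefSeq (GRCm38.p6), on the gene's strand. Capitals mark matches on either strand to CCAAT, to the cell cycle homology element TTTGAA, and to the E2F spellings TTTCCCGC, TTTCGCGC, TTTGCCGC and TTTGGCGC.
Ccnk, chr12:108179488-108179737, plus strand: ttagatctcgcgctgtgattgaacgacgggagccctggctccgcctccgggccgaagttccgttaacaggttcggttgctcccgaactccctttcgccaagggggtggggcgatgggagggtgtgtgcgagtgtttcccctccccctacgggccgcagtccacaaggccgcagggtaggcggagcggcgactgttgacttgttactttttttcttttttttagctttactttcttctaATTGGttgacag
Cdk7, chr13:100730943-100731192, minus strand: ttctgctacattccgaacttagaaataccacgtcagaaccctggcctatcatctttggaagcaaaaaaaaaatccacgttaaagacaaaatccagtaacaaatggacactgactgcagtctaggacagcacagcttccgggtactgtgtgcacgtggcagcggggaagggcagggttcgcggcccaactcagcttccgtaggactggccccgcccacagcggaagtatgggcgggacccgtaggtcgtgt
Cdk1, chr10:69352913-69353162, minus strand: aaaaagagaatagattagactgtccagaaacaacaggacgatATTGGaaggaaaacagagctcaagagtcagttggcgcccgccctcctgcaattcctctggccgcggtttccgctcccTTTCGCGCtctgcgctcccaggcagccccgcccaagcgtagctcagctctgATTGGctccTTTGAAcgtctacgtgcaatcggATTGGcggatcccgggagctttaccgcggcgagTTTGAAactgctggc
Ccnb1, chr13:100786487-100786736, minus strand: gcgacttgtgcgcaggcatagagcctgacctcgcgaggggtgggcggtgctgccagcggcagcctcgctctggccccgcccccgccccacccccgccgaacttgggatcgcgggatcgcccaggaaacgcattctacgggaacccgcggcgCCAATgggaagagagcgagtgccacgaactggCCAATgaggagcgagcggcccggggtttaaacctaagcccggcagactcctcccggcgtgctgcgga
The RefSeq start lay 159 bases inside the gene's start in GENCODE for *Ccnk*, 84 bases inside it for *Ccnb1*, 26 bases inside it for *Cdk1* and 3 bases before it for *Cdk7*, so the last bases of the *Ccnk*, *Ccnb1* and *Cdk1* windows fall in GENCODE's first exon. The *Cdk1* window held 3 CCAAT matches, 2 TTTGAA matches and 1 E2F match, TTTCGCGC, 131 bases before the start. *Ccnb1* held 2 CCAAT matches, *Ccnk* held 1, and *Cdk7* held none of the letters searched. Windows of this kind were found for 35 of the 44 members. CCAAT was present in 16 of the 35 (45.7%), against 33.8% of 32536 mouse windows of the same length. TTTGAA was present in 5 (14.3%, against 15.8%), namely *Ccnb2*, *Ccnf*, *Ccni*, *Cdk1* and *Cdk16*, and an E2F spelling in 2 (5.71%, against 1.87%), *Cdk1* and *Cdk2*. These matches are letters in a window and not measured binding sites. The median GC content was 62.8% in the member windows and 52.4% in all windows, and the shares with a match were not adjusted for it. The 5 members with TTTGAA did not share a level, since they had at least 10 counts in 2, 2, 11, 7 and 10 of the 12 libraries in the order named.

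The libraries held 14034586 to 42639326 counts on genes, and members took 0.15% to 0.914% of them. A count of 0 allows up to 3 counts, or 0.0704 to 0.214 CPM (counts scaled to the library total), and this limit covers counting error only, since reads amplified without molecular identifiers are not independent molecules. The capture was checked against marker lists. Of 6 oocyte markers all were found at 10 or more counts in at least 1 library, with summed levels from 1.83 to 1290 CPM. Of 10 granulosa cell markers 8 were found, with *Fshr* and *Cyp19a1* at 0 in all libraries, and their sum was 265 to 11100 CPM. All 8 stroma markers were found, at a sum of 2170 to 12500 CPM, so transcripts of the surrounding cells were present in every library. Genes with at least 10 counts numbered 4825 to 8284 in primordial controls, 3485 to 5569 after DM, 2602 to 5706 in primary controls and 2860 to 3436 after DM.

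Most cyclins and CDKs were found, but few in every library. Of the 44 members 40 had at least 10 counts in 1 library or more (90.9%, against 51.3% of protein-coding genes), and 14 had them in 9 or more libraries (31.8%, against 10.8%). In all 12 libraries this held for 7 members, namely *Ccnb1ip1*, *Ccnk*, *Ccnl1*, *Ccnt2*, *Cdk12*, *Cdk13* and *Cdk8*. Of the other members, 13 reached 10 counts in 4 to 8 libraries and 13 in 1 to 3. The remaining 4 did so in none, of which *Ccna1*, *Ccnb3* and *Cdk15* had 0 counts throughout and *Ccne1*, a partner of Cdk2 at the start of replication, had 1 count in 1 primordial control.

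The counts of a single member lay far apart between libraries of the same group. Of the 528 pairs of a member and a library, 30.9% were at 0, 19.7% at 1 to 9 counts, 19.3% at 10 to 99 and 30.1% at 100 or more. The library with the highest level held a median of 60.8% of a detected member's CPM summed over the 12 libraries, beside a median of 63.3% for all detected protein-coding genes. In 15 members the highest library had at least 10000 counts, and each of these 15 also had a library under 100.

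A library had 13 to 35 members at 10 or more counts. The numbers were 24, 25 and 35 in primordial controls, 16, 23 and 24 with DM, 14, 24 and 27 in primary controls and 13, 18 and 18 with DM, so both pairs of groups touched or overlapped. With all libraries thinned to the smallest total, the 12 numbers were between 9 and 32.

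**Figure D1:**
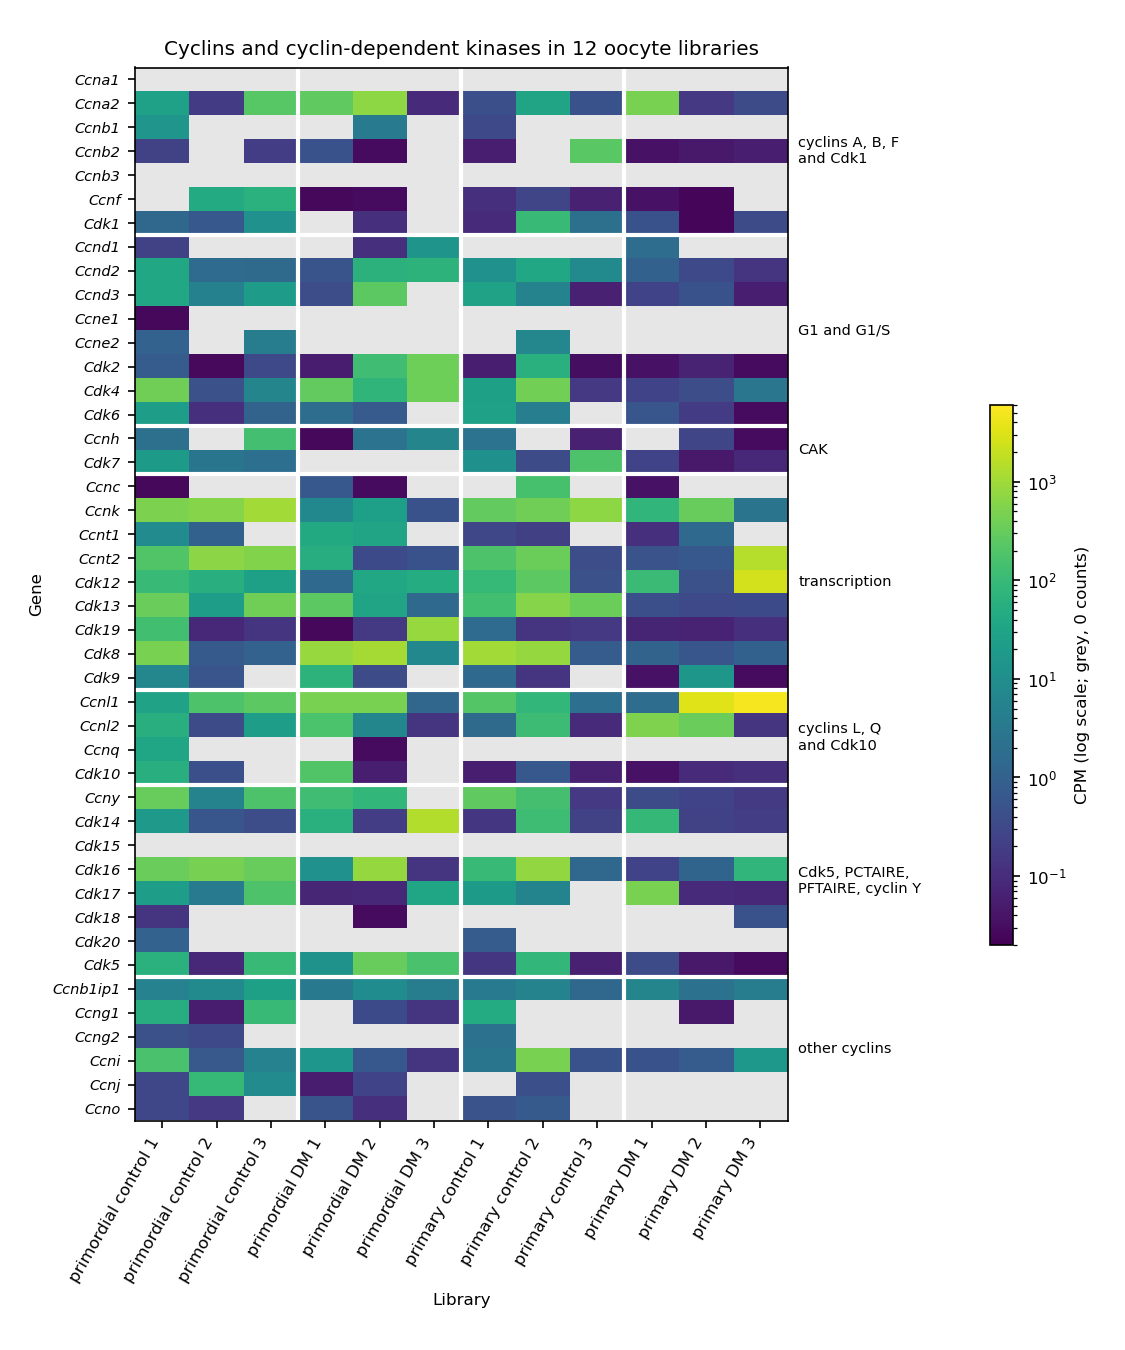
Level of each of the 44 members (rows, grouped by role) in each of the 12 libraries (columns), as CPM on a log colour scale with 0 counts in grey. The block of transcription members is the most continuously filled, *Ccna1*, *Ccnb3* and *Cdk15* are grey throughout, and most other rows change colour between libraries of 1 group.

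The transcription group, counted here without *Cdk7* and *Ccnh*, was the most continuously detected. All 9 of its members were found, with a median of 12 libraries per member. The 7 members of the cyclin A and B group had a median of 2 libraries. *Ccnh* and *Cdk7*, grouped apart as the CDK-activating kinase, reached 10 counts in 6 and 5 libraries, so the median of 12 does not cover them. Compared per kilobase of exon, *Ccnk* had the highest median level of the 44 members, 99.2 RPKM (CPM per kilobase), followed by *Ccnl1* at 31.7, *Cdk16* at 21.03, *Ccnt2* at 9.40, *Ccny* at 7.48 and *Cdk13* at 6.06. The levels behind each median ranged widely, from 0.156 to 344 RPKM for *Ccnk* itself, so neighbours in this order do not differ beyond their spread.

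*Ccnk* encodes cyclin K, which activates Cdk12 and Cdk13 to phosphorylate RNA polymerase II during elongation. Its counts were 18788, 23034 and 15840 in primordial controls, against 282, 864 and 10 with DM. Primary controls had counts of 9786, 5481 and 22046, against 2176, 13488 and 90 with DM. In primordial follicles every DM library was below every control, and in primary follicles the groups overlapped. The primordial group means were 722 ± 289 CPM in controls and 10.9 ± 12.5 CPM after DM (SD, n = 3 each), a log2 fold change of -5.64 with an SE of 2.52. This did not pass edgeR's quasi-likelihood test after Benjamini-Hochberg adjustment over all genes (adjusted p = 0.658). Over the alternative fits the adjusted p ran from 0.0441, in DESeq2, to 0.999.

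The kinases of cyclin K were as widely present. *Cdk12* had 3923, 2141 and 401 counts in primordial controls, against 58, 1330 and 1029 with DM. At the primary stage *Cdk12* had 3113, 3453 and 14 counts in controls, against 2981, 19 and 89622 with DM, so 1 DM library held 77.9% of its summed CPM. *Cdk13* had 12695, 827 and 6026 counts in primordial controls, against 9454, 1119 and 31 with DM. These groups overlapped. At the primary stage *Cdk13* had 4464, 8460 and 11258 counts in controls, against 12, 14 and 12 with DM, so every DM library was far below every control. The means there were 365 ± 236 and 0.369 ± 0.0587 CPM (SD, n = 3 each), a log2 fold change of -9.46 with an SE of 4.50 and an adjusted p of 0.396 in edgeR. The difference between its DM effects in the 2 stages was a log2 value of -8.26 (SE 4.18, adjusted p = 0.261 in edgeR over all 12 libraries).

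*Ccnt2* encodes cyclin T2, which with Cdk9 forms the elongation factor P-TEFb. It had 7407, 25074 and 8324 counts in primordial controls, against 1998, 12 and 10 with DM. Its primordial groups did not overlap, with a log2 fold change of -4.64 (SE 2.66, adjusted p = 0.658 in edgeR) that lay between -9.71 without DM library 1 and -3.97 without DM library 3. Primary controls had counts of 6125, 4865 and 12, against 14, 27 and 50934 with DM, and the groups overlapped.

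*Ccnt1* and *Cdk9*, the other cyclin of that complex and its kinase, were detected in the same libraries. *Ccnt1* had 335, 38 and 0 counts in primordial controls, 1636, 1102 and 0 with DM, 10, 3 and 0 in primary controls and 3, 64 and 0 with DM. *Cdk9* had 261, 21 and 0 counts in primordial controls, 2676, 13 and 0 with DM, 51, 2 and 0 in primary controls and 1, 687 and 1 with DM. At 10 counts the same 6 libraries held both, the other 6 held neither, and the library numbered 3 was among the latter in each group. The DM effect on *Cdk9* in primordial follicles was a log2 fold change of 4.06 (SE 3.19, adjusted p = 0.760 in edgeR), which turned to -2.59 without DM library 1. In primary follicles *Cdk9* did not pass the filter on low counts.

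*Cdk8*, with its paralog *Cdk19* and cyclin C (*Ccnc*), forms the kinase module of Mediator. *Cdk8* had 17976, 26 and 16 counts in primordial controls, against 33240, 38814 and 150 with DM. Primary controls had counts of 34705, 11261 and 25, against 30, 25 and 36 with DM. Its primary groups did not overlap after TMM scaling (log2 fold change -7.53, SE 4.15, adjusted p = 0.396 in edgeR), but they did on CPM scaled to the library total alone. The difference between its DM effects in the 2 stages was -10.34 on the log2 scale (SE 4.33, adjusted p = 0.187). *Ccnc* reached 10 counts in 2 libraries, 25 counts in a primordial DM library and 2128 in a primary control, and *Cdk19* in 3.

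*Cdk7* and *Ccnh* encode the CDK-activating kinase, which phosphorylates the other CDKs and, as part of the factor TFIIH, RNA polymerase II. *Cdk7* was the member with the smallest p in both comparisons of DM with control. In each it passed the filter on low counts through control libraries alone, so a lower value after DM was close to fixed. Its counts were 723, 102 and 30 in primordial controls, against 0, 0 and 0 with DM. Primary controls had counts of 381, 5 and 5569, against 7, 2 and 3 with DM. Each primordial control was thus above each DM library, while the primary groups, at 5 counts in the lowest control and 7 in the highest DM library, overlapped after TMM scaling and did not on CPM. Against the limit of 3 counts per library the primordial mean was at least 77.7-fold lower after DM, or at least 23.1-fold without control library 1. These folds allow for counting error only and not for the spread between libraries, with controls at 7.95 ± 9.67 CPM (SD, n = 3). The adjusted p in edgeR was 0.460. In primary follicles the log2 fold change was -9.89 with an SE of 4.47 (adjusted p = 0.395 in edgeR), and -3.76 without control library 3. The 2 effects were not shown to differ (adjusted p = 0.768 for the interaction of stage and DM in edgeR).

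*Ccnh* encodes cyclin H, the partner of Cdk7. It had 81, 0 and 2120 counts in primordial controls, 1, 84 and 133 with DM, 83, 0 and 2 in primary controls and 0, 12 and 1 with DM. Its groups overlapped in both stages, and its primordial log2 fold change was -3.46 (SE 3.23, adjusted p = 0.808 in edgeR). Both partners reached 10 counts in 3 libraries, *Ccnh* alone in 3, *Cdk7* alone in 2 and neither in 4. *Ccnh* shares exon sequence on the opposite strand with *Rasa1*, and whether reads were assigned by strand is not given in the sources used here.

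**Figure D2:**
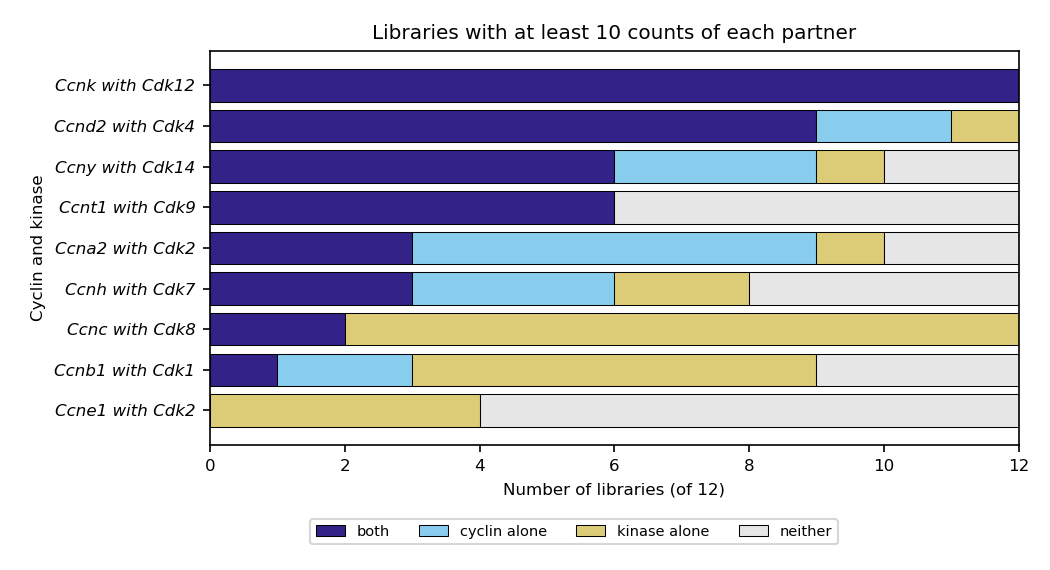
Number of the 12 libraries (x axis) in which both partners, the cyclin alone, the kinase alone or neither had at least 10 counts, for 9 cyclin and kinase pairs (y axis). *Ccnk* with *Cdk12* is complete in 12 libraries, *Ccnt1* with *Cdk9* is split evenly into both and neither, and *Ccnb1* with *Cdk1* is complete in 1.

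The M-phase members were the least regularly found. *Cdk1*, the kinase of cyclins A and B, had 51, 24 and 182 counts in primordial controls, against 0, 4 and 0 with DM. At the primary stage *Cdk1* had 3, 1426 and 66 counts in controls, against 13, 1 and 13 with DM. Its primordial groups did not overlap and its primary groups did. In primordial follicles the means were 4.68 ± 6.38 CPM in controls and 0.0382 ± 0.0662 CPM after DM (SD, n = 3 each), a log2 fold change of -6.34 with an SE of 2.95 and an adjusted p of 0.658 in edgeR. It lay between -10.08 without DM library 2 and -3.88 without control library 3. In primary follicles the log2 fold change was -5.31 (SE 3.18, adjusted p = 0.408 in edgeR), and -2.96 without control library 2. The 2 effects were not shown to differ (interaction of 1.497 on the log2 scale, SE 3.92, adjusted p = 0.861 in edgeR).

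*Ccnb1*, the main mitotic cyclin, had counts in 3 libraries, 553 in a primordial control, 123 in a primordial DM library and 11 in a primary control, and 0 in the other 9. It passed the filter on low counts in neither DM comparison. *Cdk1* and *Ccnb1* were together at 10 or more counts in 1 library, a primordial control. *Ccnb2*, a second B-type cyclin, had 7244 counts in a primary control, 18 in a primordial DM library and at most 9 in the others, so 99.5% of its summed CPM came from 1 library.

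*Ccna2*, the somatic cyclin A, had the widest presence in this branch. Its counts were 1049, 7 and 3347 in primordial controls, 10640, 24578 and 2 with DM, 15, 446 and 15 in primary controls and 12859, 7 and 13 with DM. The groups overlapped in both stages. *Ccna2* shares exon sequence on the opposite strand with *Exosc9*, and both were at or above 10 counts in 5 libraries. *Ccnf*, which encodes the F-box protein cyclin F, had 0, 1665 and 929 counts in primordial controls and at most 4 in each of the other 9 libraries. *Ccna1* and *Ccnb3*, cyclins of the germ line and of meiosis, had 0 counts in all 12 libraries.

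In the G1 group, *Ccnd2* reached 10 counts in 11 libraries, *Cdk4* in 10 and *Ccnd3* in 8, while *Ccne2* did so in 3 and *Ccnd1* in 2. *Ccnd2*, the D-type cyclin known from granulosa cells, had 1487, 62 and 24 counts in primordial controls, against 20, 2309 and 1466 with DM. At the primary stage *Ccnd2* had 409, 516 and 249 counts in controls, against 27, 14 and 5 with DM. The primordial groups overlapped, and in primary follicles every DM library was below every control. The log2 fold change was 2.89 in primordial follicles (SE 3.20, adjusted p = 0.852 in edgeR). In primary follicles the means were 18.9 ± 15.6 and 0.484 ± 0.441 CPM (SD, n = 3 each), a log2 fold change of -4.38 (SE 3.03, adjusted p = 0.462 in edgeR). The interaction was -6.91 on the log2 scale (SE 4.43), with an adjusted p of 0.369 in edgeR and of 0.0315 in DESeq2.

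*Cdk4*, the kinase of D-type cyclins, showed the same signs as *Ccnd2*. It had 15076, 17 and 95 counts in primordial controls, 11070, 2661 and 7752 with DM, 875, 5720 and 5 in primary controls and 7, 17 and 99 with DM. Its log2 fold change was 2.06 in primordial follicles (SE 2.54, adjusted p = 0.864 in edgeR), and 6.60 without control library 1. In primary follicles it was -4.84 (SE 3.32, adjusted p = 0.459 in edgeR). The groups overlapped in both stages. *Cdk4* shares exon sequence on the opposite strand with *Tspan31*, which was at or above 10 counts together with it in 4 libraries. *Ccnd2* and *Cdk4* were both at 10 or more counts in 9 libraries.

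*Cdk2*, the kinase of cyclins E and A, had 30, 1 and 5 counts in primordial controls, against 2, 4437 and 7680 with DM. Primary controls had counts of 2, 856 and 1, against 1, 3 and 1 with DM. The 2 highest primordial DM libraries were above every control, and primordial DM library 1 was among the controls. The log2 fold change in primordial follicles was 9.77 with an SE of 4.02 and an adjusted p of 0.632 in edgeR. Over the alternative fits that p ran from 0.000307, in DESeq2, to 0.999. In primary follicles *Cdk2* did not pass the filter. The interaction for *Cdk2*, fitted to the 12 libraries together, had a log2 value of -15.76 with an SE of 5.31 (adjusted p = 0.123 in edgeR), the smallest p of a member in that test, and DESeq2 gave it an adjusted p of 0.000654. Its E-type cyclins were nearly missing, with *Ccne2* at 39 and 64 counts in 2 primordial controls, 96 in a primary control and 0 elsewhere.

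The remaining G1 members varied without order. *Ccnd3*, the last D-type cyclin, had 1429, 187 and 321 counts in primordial controls, 15, 8695 and 0 with DM, 978, 80 and 2 in primary controls and 7, 20 and 2 with DM. *Ccnd3* shares exon sequence on the opposite strand with *Bysl*, and both were at or above 10 counts in 3 libraries. *Cdk6*, the second kinase of D-type cyclins, reached 10 counts in 7 libraries with a highest count of 929. *Ccnd1* reached 10 counts in 2 libraries, a primordial DM library with 285 and a primary DM library with 50.

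Cyclins L1 and L2 take part in the control of splicing. *Ccnl1* had 1088, 6430 and 3769 counts in primordial controls, against 17779, 16258 and 27 with DM. At the primary stage *Ccnl1* had 7031, 1205 and 62 counts in controls, against 49, 141095 and 176038 with DM. The 2 highest values are the largest of any member, and *Ccnl1* alone took 82.95% and 54.9% of all member counts in those libraries. On CPM, *Ccnl1* in primary DM library 1 was below every primary control. Its primary log2 fold change was 6.95 (SE 3.29, adjusted p = 0.396 in edgeR), and over the alternative fits the adjusted p ran from 0.00141, in DESeq2, to 0.999. *Ccnl2* had 2133, 13 and 338 counts in primordial controls, 6592, 226 and 3 with DM, 53, 1580 and 3 in primary controls and 14332, 14377 and 5 with DM. The DM and control groups of *Ccnl2* overlapped in both stages. *Cdk10* reached 10 counts in 3 libraries and its cyclin *Ccnq* in 1.

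Among the kinases related to Cdk5, *Cdk16* and cyclin Y were found most often. *Cdk16*, a PCTAIRE kinase that cyclin Y activates, had 13034, 16633 and 4771 counts in primordial controls, against 450, 28795 and 3 with DM. Primary controls had counts of 3472, 10642 and 41, against 7, 49 and 2886 with DM. *Ccny*, which anchors such kinases at the membrane, had 11899, 213 and 2674 counts in primordial controls, 4774, 2982 and 0 with DM, 9559, 2029 and 5 in primary controls and 10, 11 and 6 with DM. The groups of both genes overlapped in both stages.

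*Cdk14*, a PFTAIRE kinase and another partner of cyclin Y, had the second smallest p in primordial follicles. It had 679, 22 and 6 counts in controls, against 2252, 7 and 29563 with DM, and the groups overlapped. The log2 fold change was 7.60 with an SE of 2.70 (adjusted p = 0.460 in edgeR), and 3.01 without DM library 3, which held 83.1% of its summed CPM over the 12 libraries. *Cdk5*, best known from neurons, had 2388, 3 and 1481 counts in primordial controls, 487, 11073 and 3412 with DM, 5, 1167 and 2 in primary controls and 10, 2 and 1 with DM. *Cdk17* reached 10 counts in 7 libraries, *Cdk20* in 2, *Cdk18* in 1 and *Cdk15* in none.

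*Ccnb1ip1*, whose product HEI10 acts at meiotic crossovers, had the most even counts of all members, 206, 298 and 386 in primordial controls, 123, 325 and 87 with DM, 128, 78 and 45 in primary controls and 167, 95 and 145 with DM. It shares exon sequence on the same strand with *Rpph1*, the RNA component of RNase P. The counts of the 2 genes were equal in 9 of the 12 libraries and within 1 count in 11. The largest difference was 20 counts, 206 against 186 in primordial control 1. The values of *Ccnb1ip1* therefore cannot be told apart from those of *Rpph1*, and this holds for every count of members that includes it.

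**Figure D3:**
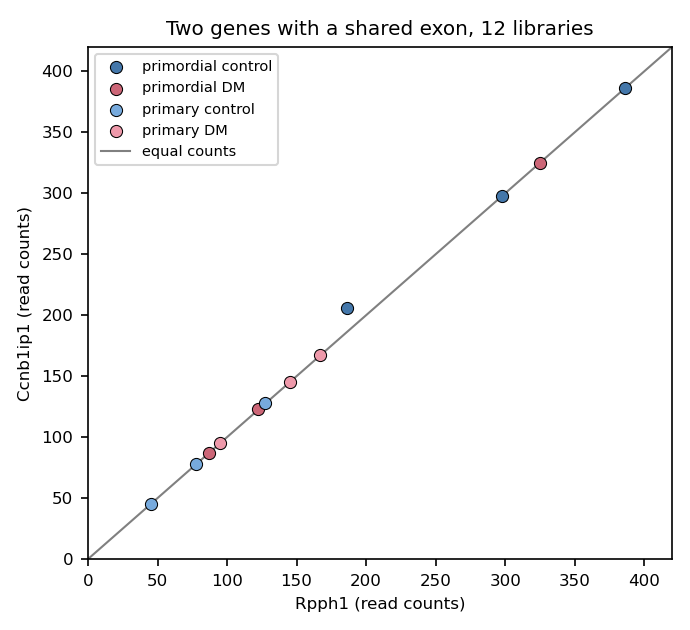
Read counts of *Ccnb1ip1* (y axis) against those of *Rpph1* (x axis) in the 12 libraries, coloured by group, with the line of equal counts. All but 1 of the libraries lie within 1 count of the line, and primordial control 1 lies 20 counts above it.

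Of the other cyclins, *Ccni* was found in 11 libraries. It had 6043, 25 and 81 counts in primordial controls, 590, 23 and 3 with DM, 90, 6513 and 15 in primary controls and 13, 34 and 587 with DM, and its groups overlapped in both stages. *Ccng1*, a target of p53, had 1990, 2 and 1528 counts in primordial controls, 0, 12 and 3 with DM, 1567, 0 and 0 in primary controls and 0, 2 and 0 with DM. *Ccng2*, a target of FoxO factors, reached 10 counts in 2 primordial controls and 1 primary control, and had 0 counts in all 6 DM libraries. *Ccno* reached 10 counts in 4 libraries, with a highest count of 20, and *Ccnj* in 3.

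With these counts, DM was compared with control in each stage over all genes that passed the filter on low counts. In primordial follicles 28 members were tested among 6699 genes, and 0 members passed an adjusted p of 0.05 in edgeR's quasi-likelihood test, as against 1 gene of all (0.0149%). At an unadjusted p under 0.05 there were 6 members (21.4%, against 7.33% of all genes), *Cdk2* and *Cdk14* with higher values after DM and *Ccnj*, *Ccnk*, *Cdk1* and *Cdk7* with lower values. Of these, *Ccnj*, *Cdk1* and *Cdk7* passed the filter through control libraries alone. DESeq2 called 6 members there (20% of those with a p, against 5.64% of all genes), *Cdk2* with higher and *Ccnf*, *Ccng1*, *Ccnj*, *Ccnk* and *Cdk7* with lower values. The libraries of the 2 groups did not overlap for 4 members with lower values after DM, *Ccnk*, *Ccnt2*, *Cdk1* and *Cdk7* (14.3%, against 8.81% of all genes), and for 0 members with higher values (against 3.78%). The median log2 fold change was -0.11 over the members tested and 0.13 over all genes.

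In primary follicles 19 members were tested among 4181 genes, and 0 had an adjusted p under 0.05 in edgeR, as did 0 of all genes (0%). At an unadjusted p under 0.05 there were 3 members (15.8%, against 12.2% of all genes), *Ccnl1* with higher values after DM and *Cdk7* and *Cdk13* with lower values. DESeq2 called 3 members, *Ccnd1*, *Ccnl1* and *Ccnl2*, with higher values after DM (13.6%, against 7.54% of all genes). The groups did not overlap for 3 members with lower values, *Ccnd2*, *Cdk13* and *Cdk8* (15.8%, against 10.4% of all genes). For values higher after DM this was *Ccnb1ip1* alone, whose counts are those of *Rpph1* as well (5.26%, against 2.87%), and its groups overlapped on CPM without TMM. The median log2 fold change was -2.59 over the members tested and 0.31 over all genes. With DESeq2's size factors these medians were -0.88 and 2.12, and with library sizes alone -4.84 and -0.96, so the members lay below the median of all genes under each of these 3 scalings. Without control library 2 the order was not kept, with a median of 0.91 over the members and 0.89 over all genes.

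Of the 19 members tested in both stages, 10 had the same sign in both, 7 with lower values after DM (*Ccni*, *Ccnk*, *Ccny*, *Cdk1*, *Cdk13*, *Cdk6* and *Cdk7*) and 3 with higher values (*Ccna2*, *Ccnl1* and *Ccnl2*). The other 9 had opposite signs. The interaction of stage and DM was tested for 33 members among 8500 genes, and 0 had an adjusted p under 0.05 in edgeR, as did 0 of all genes. At an unadjusted p under 0.05 there were 4 members (12.1%, against 18.9% of all genes), *Ccnt2*, *Cdk13*, *Cdk2* and *Cdk8*. DESeq2 called 4 members there, *Ccnd2*, *Ccnl1*, *Cdk2* and *Cdk8* (16%, against 4.89% of all genes).

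Marker levels were also set beside each other for DM and control, and 0 marker genes passed the adjusted test in edgeR in either stage. The summed level of 9 markers of growing oocytes was 17.2, 19.5 and 133 CPM in primordial controls and 0.76, 6.04 and 12.7 CPM after DM. These sums did not overlap on CPM scaled to the library total, and overlap after TMM was not examined for them. In primordial follicles the 6 tested stroma markers all had a positive log2 fold change, with a median of 1.05, and 0 of the 6 passed the test. Of the 6 tested granulosa cell markers 4 had a negative log2 fold change, with a median of -0.82, and of the 4 tested oocyte markers 3 did, with a median of -1.31, and 0 of either list passed the test. *Foxl2*, a transcription factor of granulosa cells, had 40701, 39034 and 4197 counts in primordial controls, against 97, 656 and 61 with DM. *Nobox*, a transcription factor of oocytes, had 36, 24 and 28 counts in those controls, against 2, 0 and 0 with DM. Neither gene overlapped between these groups, as held, with lower values after DM, for 8.81% of all genes tested there. Both had an unadjusted p under 0.05 in edgeR, as did 7.33% of those genes. *Nobox* passed the filter through control libraries alone, so a lower value after DM was close to fixed for it. Stroma sums of 2550 to 3480 CPM in controls and 2170 to 4090 CPM after DM overlapped. In primary follicles growing oocyte markers summed to 12.1 to 218 CPM in controls and 1.05 to 83.0 CPM after DM, and granulosa cell markers to 1040 to 8040 and 490 to 11100 CPM. Whether marker levels had a part in the values of the members was not tested.

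**Figure D4:**
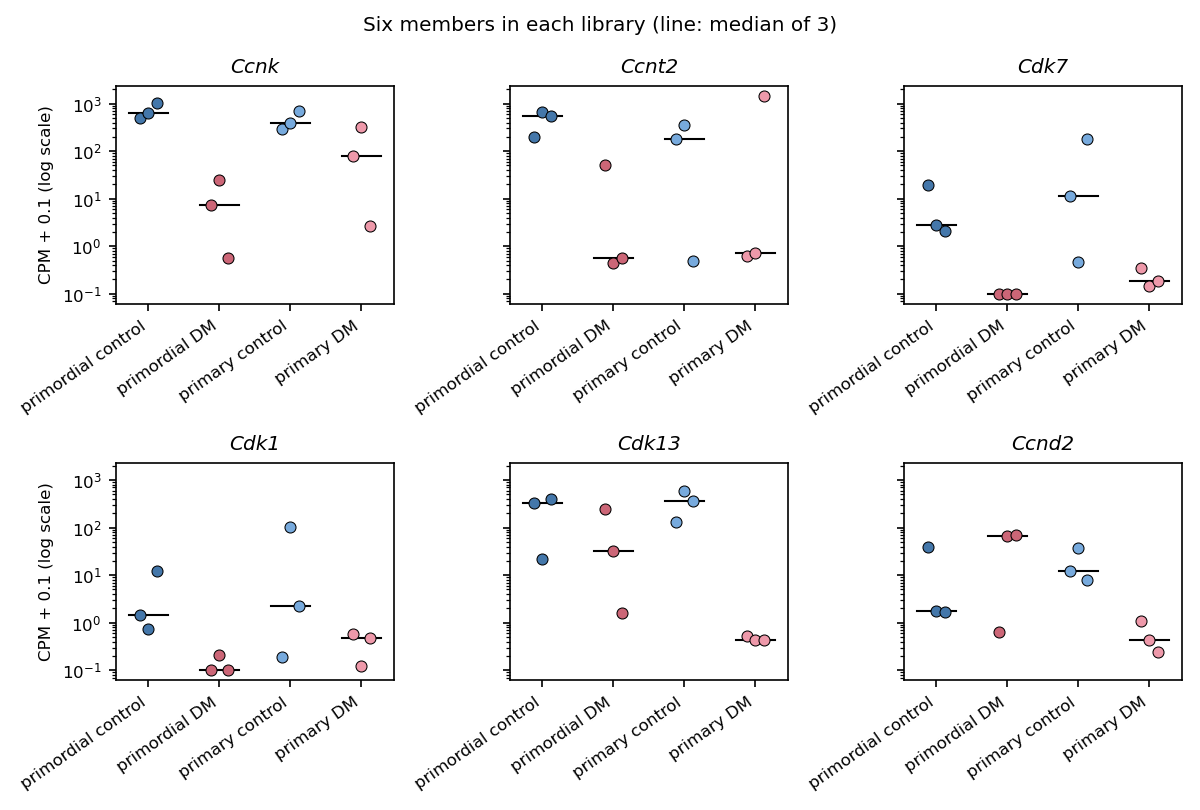
CPM of 6 members in each library on a log axis with 0.1 added, by group, with a line at the median of 3 libraries. *Ccnk*, *Ccnt2*, *Cdk7* and *Cdk1* show no overlap between the primordial groups, and *Cdk13* and *Ccnd2* none between the primary groups.

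**Figure D5:**
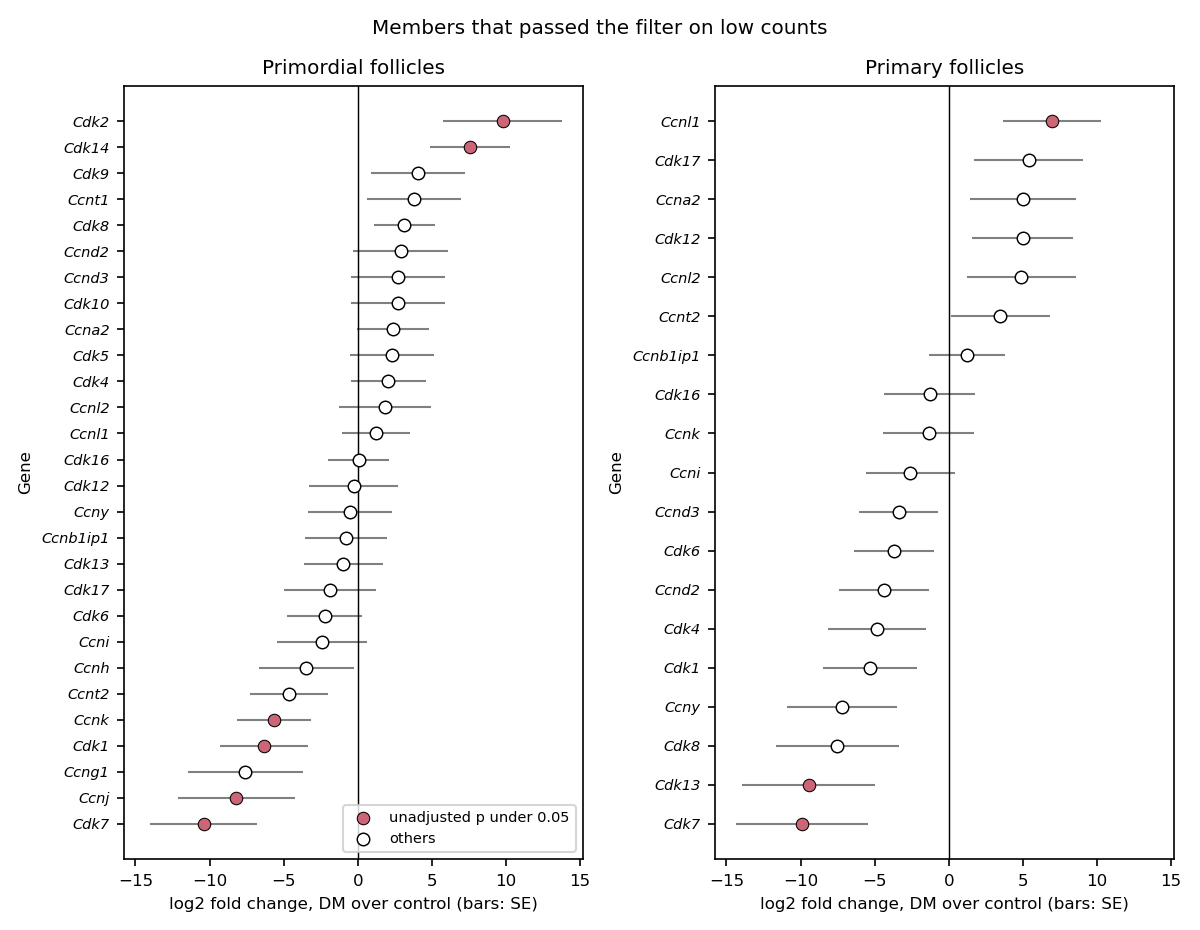
Log2 fold change of DM over control with its SE for the 28 members tested in primordial and the 19 tested in primary follicles, with members at an unadjusted p under 0.05 filled. The points spread on both sides of 0 with wide errors, and none passed the adjusted threshold. The primordial value of *Cdk7* depends on the prior count, as its DM libraries are at 0.

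The follicle stages were compared within each treatment, which asks what differs between resting and growing follicles. Among controls 29 members were tested among 6726 genes, with 0 called in edgeR (0% of all genes). At an unadjusted p under 0.05 there was 1 member (3.45%, against 6.44% of all genes), *Ccnj*, and DESeq2 called it and no other member (3.85%, against 2.4% of all genes). *Ccnj*, a cyclin of unsettled function, had 11, 3528 and 133 counts in primordial controls and 0, 6 and 0 in primary controls. The lowest primordial control and the highest primary control overlapped, at 11 counts in a large and 6 in a small library. Its log2 fold change was -8.41 (SE 4.09, adjusted p = 0.749 in edgeR). No member was separated between the control stages in either direction (0%, against 1.92% of all genes higher and 7.63% lower in primary follicles).

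After DM 20 members were tested among 4331 genes, with 0 called in edgeR (0% of all genes). DESeq2 called 6 members (23.1%, against 10.3% of all genes), *Ccnk* and *Ccnl1* with higher and *Cdk2*, *Cdk4*, *Cdk5* and *Cdk8* with lower values in primary follicles. At an unadjusted p under 0.05 there were 3 members (15%, against 17.2% of all genes), *Cdk5*, *Cdk8* and *Ccnl1*. *Cdk5* had the smallest p, with a log2 fold change of -9.13 (SE 3.93, adjusted p = 0.286 in edgeR), and over the alternative fits the adjusted p ran from 0.00311, in DESeq2, to 0.977. In every primary DM library 4 members were lower than in every primordial DM library, *Cdk13*, *Cdk4*, *Cdk5* and *Cdk8* (20%, against 12.1% of all genes), and *Ccnb1ip1*, with the counts it shares with *Rpph1*, was higher (5%, against 4.16%). The last of these overlapped on CPM without TMM. Both DM comparisons and both stage comparisons draw on the same 12 libraries, so a low or high library counts in more than 1 of them.

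The genes that act on cyclins and CDKs were read from a list of 36. Among the 7 CDK inhibitors, *Cdkn1b* (p27), known to hold primordial oocytes at rest, was found in 9 libraries, with 1268, 4402 and 665 counts in primordial controls, 1908, 17033 and 544 with DM, 301, 118 and 6 in primary controls and 11, 6 and 3 with DM. Every primordial library was above every primary library for *Cdkn1b*, and the log2 fold change between the stages after DM was -8.46, which did not pass the adjusted test in edgeR. *Cdkn2a* and *Cdkn2b* were at 0 in all libraries, and *Cdkn1a* (p21) reached 10 counts in 2. Among 9 kinases, phosphatases and subunits that act on CDKs all were found, with *Cks1b* and *Cks2*, small CDK-binding proteins, in 10 libraries each.

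*Cdc25a*, a phosphatase that activates CDKs, had 1531, 15 and 919 counts in primordial controls, against 2, 0 and 0 with DM. *Mnat1*, the assembly factor of Cdk7 with cyclin H, had 20, 70 and 160 counts in primordial controls, against 1, 2 and 1 with DM. In those DM libraries *Cdk7* had 0 counts, while *Ccnh* had 1, 84 and 133, against 81, 0 and 2120 in controls. The groups of *Ccnh* overlapped, and its log2 fold change of -3.46 (SE 3.23) had the same sign as that of *Cdk7*. Whether the 3 genes of this complex went together was not tested. At the primary stage *Mnat1* had 5487, 0 and 3 counts in controls, against 0, 2 and 3 with DM. Among 10 targets, *E2f3* had 883, 16126 and 747 counts in primordial controls, against 10, 12 and 3 with DM. Of the 36 genes 18 were tested in primordial follicles and 9 in primary follicles, and 0 had an adjusted p under 0.05 in edgeR. At an unadjusted p under 0.05, *Cdc25a*, *E2f3*, *Fbxw7* and *Mnat1* had lower and *Cks1b* higher values after DM in primordial follicles. These were 4 and 1 of the 18 tested, where 7.33% of all genes had such a p. Of the former, *Cdc25a* and *Mnat1* passed the filter through control libraries alone, so lower values after DM were close to fixed for them. In primary follicles it was 1 of the 9 tested, *Cks1b* with higher values, against 12.2% of all genes. In each stage 1 DM library, of 28355 and 60746 counts, was far above the rest for *Cks1b*. The medians over the genes tested were log2 fold changes of -0.53 in primordial and -1.03 in primary follicles.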

How the data were processed

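The authors trimmed the reads with Trim Galore, mapped them to the mouse genome (mm10), assigned them to genes with featureCounts and deposited the raw counts. The mapper is TopHat2 in the study's methods and STAR in the submitters' processing notes, and the strand setting of the counting is not given in the sources used here. Libraries were made from 200 pooled oocytes, which the study describes as independent samples, so each was taken as 1 replicate. No pair of libraries of the same group agreed within sampling noise (chi-square of counts over genes). Pairs across groups were not compared. Groups came from the sample labels.

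Symbols, positions and exon overlaps came from GENCODE M21 (GRCm38), which held 54349 of the 55401 identifiers at the same version, all members among them. Exons of 21 members overlapped an exon of another gene, on the same strand in 4 of them. A member was called detected at 10 counts. CPM used the library total, and RPKM the summed exon length. Each comparison was fitted over all genes in edgeR 4.0.16 (R 4.3.3, filterByExpr, TMM, glmQLFit and glmQLFTest, prior count 0.125) on the libraries compared, and the interaction on all 12, adjusted by Benjamini-Hochberg at a threshold of 0.05. Standard errors were derived from the fold change and the F statistic. The main edgeR fit and DESeq2 were first run on simulated libraries with 200 genes changed, for DM in each stage. The other fits were not simulated. The simulated libraries had far less spread than the data, so this run does not show what the fits recover here. Groups were called not overlapping for members on CPM after TMM, and marker lists were compared on CPM scaled to the library total. Promoters were the RefSeq windows (GRCm38.p6) whose start was nearest to the gene start.

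The members, their functional groups, partner pairs and all lists were chosen with earlier results of these data known. Named with full statistics were *Cdk1*, *Ccnb1*, *Ccnd2*, *Cdk4*, *Cdk2*, *Cdk7* and *Cdk9* in both DM comparisons, the 2 members with the smallest p in each, since 0 passed the threshold, and 1 in each stage comparison. Counts were given for members detected in 9 or more libraries. *Ccnk*, *Ccnt2*, *Cdk13* and *Cdk8*, and other members with counts in the text, were named after their values had been seen.

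Alternatives were DESeq2 1.42.0, its size factors in edgeR, no filter, all 12 libraries in 1 fit, a replicate block, each library left out in turn, thinning, and detection at 1 count. Library size alone and detection at 100 counts were chosen after seeing the data. Python 3.11.15 was used outside R. Figures were drawn from the same tables.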

Additional observations from a re-analysis of the deposited data

How the results depend on the processing

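The number of members with an adjusted p under 0.05 stayed at 0 in each of the 5 comparisons with DESeq2's size factors in edgeR, with no filter, with all 12 libraries in 1 fit (the 4 comparisons of groups), with library size alone, and in all 36 settings that left out 1 library. Only DESeq2 itself gave calls, with 6 members for DM in primordial follicles (5.64% of all genes were called), 3 for DM in primary follicles (7.54%), 1 for stage among controls (2.4%), 6 for stage after DM (10.3%) and 4 for the interaction (4.89%). For *Ccnd1* in primary follicles it gave a log2 fold change of 22.58 where 1 DM library had 50 counts and the other 5 libraries had 0. Over 18 log2 fold changes of named members, 215 of 216 alternative values kept their sign. The exception was *Cdk9* in primordial follicles, which was -2.59 without DM library 1 and 6.26 at the other end of the range. Many of the 18 were named for a small p or for groups without overlap, so kept signs were close to fixed for them. Signs of members not named were not compared in this way.

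A fit with a replicate block, paired by the number in the labels, called 0 members in each comparison. The same numbers did not deviate together (correlations from -0.0377 to 0.0314 over 8500 genes), so the numbers were not treated as pairs. The median number of members detected per library was 23.5 at 10 counts, 30 at 1 count, 18.5 after thinning to the smallest library and 14.5 at 100 counts. The cause of these differences was not tested. The biological coefficient of variation was 1.76 in primordial and 1.86 in primary follicles, which sets what 3 libraries a group can show here.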
